A study of Mus musculus with 10 samples.

Results

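The nuclear oxidative phosphorylation genes are the genes of the cell nucleus that encode subunits of the 5 complexes of the mitochondrial respiratory chain and ATP synthase, with a few of their assembly factors. They were taken from the RNA table by name: every row beginning with Nduf followed by a, b, c, s or v, with Cox4 to Cox8, with Atp5 or with Uqcr, and the rows Sdha, Sdhb, Sdhc and Sdhd. The rule found 92 of the 23309 named rows, and 85 of them are among the 9619 genes that the authors tested. Peaks of both binding lists were joined to them by the nearest start site, which gave 12 of 4579 KLF3 peaks and 10 of 3800 KLF1 peaks. The rule used names and no measured value.

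Newly made RNA was profiled in 6 libraries and chromatin in 4, all of mouse erythroid cells. J2E is a fetal liver erythroid line that was immortalised and is labelled wild type, without the KLF3-ER fusion. J2E-KLF3-ER is that line with an added KLF3-ER fusion, the repressor KLF3 joined to an estrogen receptor domain that 4-hydroxytamoxifen (200 nM) switches on, and its 3 RNA libraries came from the clones A, C and E. The 3 J2E RNA libraries were treated with tamoxifen in replicates 1 and 2 and with ethanol, the vehicle, in replicate 3. RNA was labelled for 30 minutes with 500 µM 4-thiouridine and the labelled fraction was sequenced. The KLF3 chromatin came from J2E-KLF3-ER clone C, precipitated through the estrogen receptor part. The KLF1 chromatin came from K1-ER cells, clones A and C, which are KLF1-null erythroblasts with a tamoxifen-induced KLF1-ER transgene. Both were taken after 3 hours of tamoxifen (200 nM). Each chromatin library pooled 3 replicates and has 1 input library, so no peak has a replicate value. The authors' deposited table gives 1 pooled FPKM value (fragments per length and library size) for each RNA group, so no error can be set beside a level, the depth is unknown here and no replicate can be left out. All J2E-KLF3-ER libraries carry the fusion and received tamoxifen, so the transgene, its activation and clonal differences cannot be told apart. Whether the J2E libraries are separate cultures is not labelled, and the p-values may therefore rest on technical spread between libraries.

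Of the erythroid markers with a row per the authors' deposited table, 10 of 11 were tested, with 6.21 to 133 FPKM in J2E, and Kit was under 1 FPKM in both lines. Summed over the 11 rows, they stood at 622 FPKM in J2E and 436 in J2E-KLF3-ER per the authors' deposited table. At the authors' q below 0.05, 4 of the 10 tested fell (Klf1, Epor, Gfi1b and Slc4a1), against 1.90% of all tested genes. The 1 tested marker above 0 was Alas2, from 6.21 to 9.28 FPKM per the authors' deposited table (q = 0.262). All 5 lymphoid and all 3 mast cell markers were under 1 FPKM in both lines per the authors' deposited table. The 6 myeloid markers summed to 33.8 and 27.4 FPKM and the 4 megakaryocyte markers to 157 and 175 FPKM per the authors' deposited table, none of them called, with Pf4 and Itga2b making up most of the latter. The part of these cell markers in the values below was not tested, and in bulk RNA a change in the number of cells of a type and a change in RNA per cell cannot be told apart.

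Oxidative phosphorylation passes electrons from NADH (complex I) or succinate (complex II) through complexes III and IV to oxygen, and the proton gradient this builds drives ATP synthase (complex V). Most subunits are encoded in the nucleus, the rest in mitochondrial DNA. NRF1, the ETS factor GABP and YY1 are textbook activators of these nuclear genes. Erythroid precursors depend on working mitochondria, where heme synthesis begins and ends, until the organelles are cleared during maturation.

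Most of these genes were slightly higher in J2E-KLF3-ER, but none passed the authors' test. Of 85 tested members, 64 (75.3%) had a log2 fold change above 0, against 53.4% of all tested genes, and their median was 0.26, against 0.03 for all tested genes, per the authors' deposited table. At the authors' q below 0.05 none rose and none fell, where 0.821% of all tested genes rose and 1.90% fell. At q below 0.1 there was 1 higher member, Atp5j2, and no lower one, against 1.69% and 2.87% of all tested genes. At an unadjusted p below 0.05 per the authors' deposited table, 15 members (17.6%) were higher and 0 lower, against 7.93% and 7.47% of all tested genes. The lowest q among members was 0.0766, that of the same gene, per the authors' deposited table. Summed over tested members, the level went from 1922 to 2270 FPKM, a ratio of 1.18, against 1.08 for the sum over all tested genes, per the authors' deposited table. The highest tested gene stood at 9064 FPKM in J2E and the highest member at 110. The sum over all tested genes thus gives weight to far higher rows, and its ratio does not describe a typical gene. These counts and medians describe the list and carry no test of the list.

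**Figure D1:**
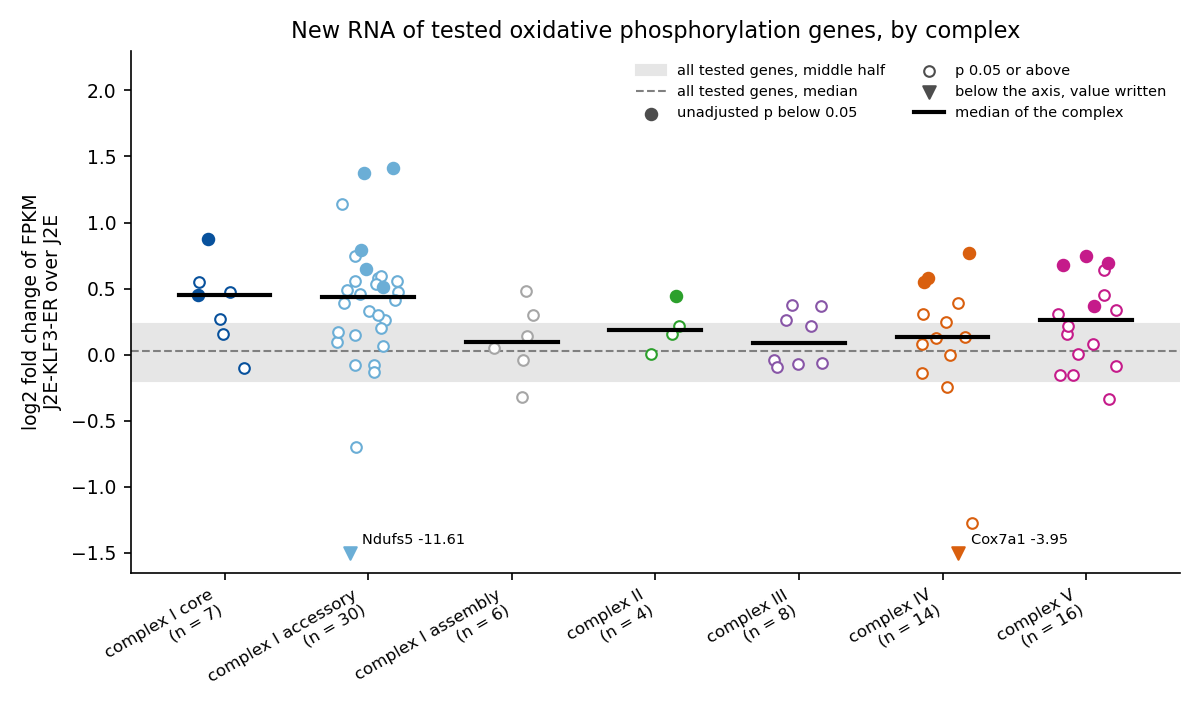
The log2 fold change of FPKM (J2E-KLF3-ER over J2E) of each tested member, 1 point a gene, by complex. Filled points have an unadjusted p below 0.05, bars are medians, the grey band spans the quartiles of all tested genes, and triangles mark 2 genes below the axis (Ndufs5 and Cox7a1). Every filled point lies above 0. The medians of the complex I core (0.45) and accessory (0.44) subunits and of complex V (0.26) lie above the grey band, and the other medians lie within it.

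Complex I, the NADH dehydrogenase, had the highest median. Its 7 core subunits in the list, which hold the flavin and iron-sulfur clusters, had a median log2 fold change of 0.45, with 6 above 0, and its 30 tested accessory subunits had 0.44, with 25 above 0, per the authors' deposited table. Ndufs8, which carries iron-sulfur clusters, went from 8.20 to 12.0 FPKM per the authors' deposited table (q = 0.470). Of the core genes with the highest levels in J2E, Ndufs3 went from 25.7 to 23.9 FPKM, Ndufs1, the largest subunit, from 20.2 to 27.5 FPKM (p = 0.0234, q = 0.226), and Ndufv1, which binds the flavin, from 15.5 to 18.6 FPKM per the authors' deposited table. The locus of Ndufs1 in the table (62352 bp against 33231 bp in RefSeq) is longer than the gene, so its value is uncertain.

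Among accessory subunits the largest differences were at genes of low level. Ndufb3 went from 4.79 to 12.8 FPKM (log2 fold change 1.41, q = 0.159) and Ndufa2 from 7.15 to 18.6 FPKM (1.38, q = 0.122) per the authors' deposited table. Ndufc1 had a similar difference, from 5.87 to 12.9 FPKM (q = 0.342) per the authors' deposited table, and was named after its values were seen. These differences did not pass the test, while Atp5j2, with a smaller fold at a higher level, had the lowest q. The locus of Ndufa2 in the table is 9479 bp long where RefSeq gives the gene 2256 bp, so its value may include a neighbour and is uncertain. Ndufa4, whose protein is now assigned to complex IV, had the highest level of the accessory group, 49.1 and 51.5 FPKM per the authors' deposited table. Ndufa3 (19.4 and 18.4 FPKM) and Ndufa9 (19.4 and 18.3 FPKM) were also nearly level between the lines per the authors' deposited table.

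One accessory row is close to empty in 1 line. Ndufs5 is listed at 3.78 FPKM in J2E and 0.00121 FPKM in J2E-KLF3-ER per the authors' deposited table, with p = 0.221 and q = 0.605. This is the largest log2 difference of any tested member (-11.61), and it was not called. It was named after its values were seen, and a level this near 0 can be a failed estimate. Ndufb2 stood at 13.2 and 8.12 FPKM per the authors' deposited table (log2 fold change -0.70, q = 0.535), the lowest value among complex I genes at 1 FPKM or more in both lines.

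The 6 tested assembly factors of complex I, which help build it and are not part of it, had a median of 0.10, near that of all tested genes. Ndufaf4 (25.4 and 26.3 FPKM) and Ndufaf1 (16.5 and 18.2 FPKM) had the highest levels per the authors' deposited table. Ndufaf3 went from 4.18 to 5.85 FPKM and Ndufaf6 from 5.96 to 4.77 FPKM per the authors' deposited table, neither called (q = 0.608 and 0.757).

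All 4 genes of complex II, succinate dehydrogenase, which also belongs to the TCA cycle, had values above 0, with a median of 0.19 per the authors' deposited table. Sdha, the flavoprotein, went from 19.5 to 26.6 FPKM per the authors' deposited table (log2 fold change 0.44, p = 0.0172, q = 0.190). Sdhb, the iron-sulfur subunit, stood at 11.2 FPKM in both lines per the authors' deposited table. The membrane anchors Sdhc (6.39 and 7.13 FPKM) and Sdhd (46.9 and 54.6 FPKM) were not called per the authors' deposited table (q = 0.882 and 0.621). Sdhd thus had the highest level per length of this complex in both lines.

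Complex III, the cytochrome bc1 complex, was close to all tested genes: 4 of its 8 tested members were above 0 and 4 below, with a median of 0.09 and none at p below 0.05 per the authors' deposited table. Its range was narrow, -0.09 to 0.38 on the log2 scale per the authors' deposited table. Uqcrq (49.7 and 47.6 FPKM), Uqcrh (44.8 and 53.6 FPKM) and the core protein gene Uqcrc2 (40.3 and 37.7 FPKM) had the highest levels per the authors' deposited table. Uqcrb, at 27.3 and 35.4 FPKM, and Uqcr11, at 22.4 and 28.9 FPKM, had the largest differences per the authors' deposited table (q = 0.599 and 0.681). Neither passed the authors' test. The locus of Uqcrc2 in the table (35155 bp against 24335 bp in RefSeq) is longer than the gene, so its value and place in that order are uncertain.

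Complex IV, cytochrome c oxidase, had 9 of 14 tested members above 0 and a median of 0.13 per the authors' deposited table. Cox4i1, the regulatory subunit 4, went from 39.3 to 58.7 FPKM per the authors' deposited table (log2 fold change 0.58, p = 0.0134, q = 0.165). Cox7a2l, which encodes a factor that joins complexes III and IV into supercomplexes, went from 12.0 to 20.4 FPKM (0.77, p = 0.0055, q = 0.108) per the authors' deposited table. Cox7b went from 20.8 to 30.5 FPKM (p = 0.0232, q = 0.226) per the authors' deposited table. The genes with the highest levels were almost level: Cox7c stood at 90.4 and 99.3, Cox6a1 at 52.8 and 52.8 and Cox8a at 52.6 and 55.6 FPKM per the authors' deposited table.

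Several complex IV subunits have a second gene that other tissues use, and here the widely expressed gene had the higher FPKM in every pair. Cox4i1 was 103-fold above its lung paralog Cox4i2 (0.383 FPKM) in J2E per the authors' deposited table. Cox6a2, the heart and muscle gene paired with Cox6a1, is listed at 0 in both lines, for a locus of 32421 bp where RefSeq gives the gene 932 bp. Of the testis genes, Cox7b2 (0.589 FPKM) and Cox8c (0.247 FPKM) were low in J2E and listed at 0 in J2E-KLF3-ER, and Cox6b2 stood at 3.51 and 3.19 FPKM per the authors' deposited table. The heart and muscle genes Cox7a1 and Cox8b were higher than these in J2E. Cox7a1 went from 6.74 to 0.435 FPKM (log2 fold change -3.95, q = 0.476) and Cox8b from 8.46 to 3.50 FPKM (-1.27, q = 0.482) per the authors' deposited table. Neither passed the test despite these differences. The widely expressed partners Cox7a2 and Cox8a were 4.41-fold and 6.21-fold above them in J2E.

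**Figure D2:**
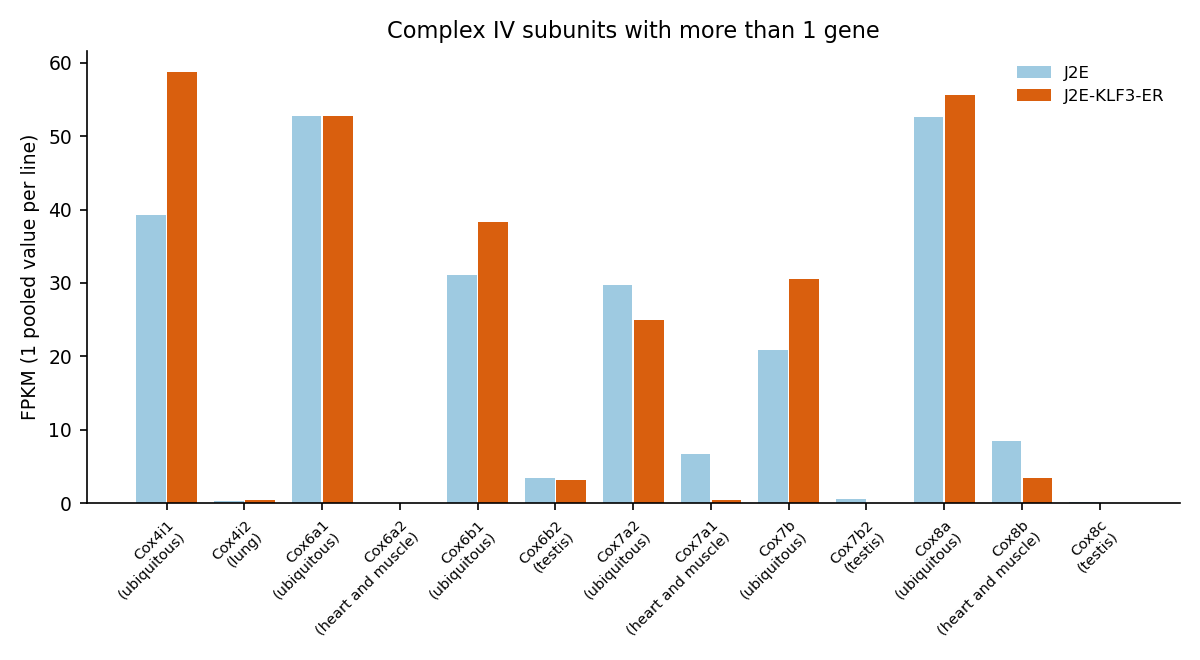
FPKM (1 pooled value per line, bars from 0) of the 13 genes that encode alternative forms of 6 complex IV subunits, with the tissue each form is usual for in brackets. The widely expressed gene of each subunit has the tallest bars of its set in both lines.

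Complex V, ATP synthase, held the member with the highest level in J2E, Atp5b, and the member with the lowest q, Atp5j2. This group was taken by the Atp5 prefix alone and so includes Atp5sl, whatever the role of its protein. Of its 16 tested members 12 were above 0, with a median of 0.26 per the authors' deposited table. Atp5b, the catalytic beta subunit, stood at 110 and 116 FPKM, and Atp5a1, the alpha subunit, at 56.1 and 72.2 FPKM (p = 0.0249, q = 0.232) per the authors' deposited table. Atp5j2, subunit f of the membrane part, went from 79.6 to 128 FPKM (log2 fold change 0.68, p = 0.00285, q = 0.0766) per the authors' deposited table. Atp5l, subunit g, and Atp5o, the stalk protein OSCP, went from 21.1 to 35.3 FPKM (q = 0.196) and from 10.5 to 17.0 FPKM (q = 0.267) per the authors' deposited table. So 4 complex V genes, of the catalytic head, the stalk and the membrane part, were higher at p below 0.05, and none passed the q threshold. The 3 genes for the same ring subunit c differed little between the lines: Atp5g3 stood at 75.5 and 84.0, Atp5g1 at 28.9 and 29.0 and Atp5g2 at 34.0 and 30.5 FPKM per the authors' deposited table.

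**Figure D3:**
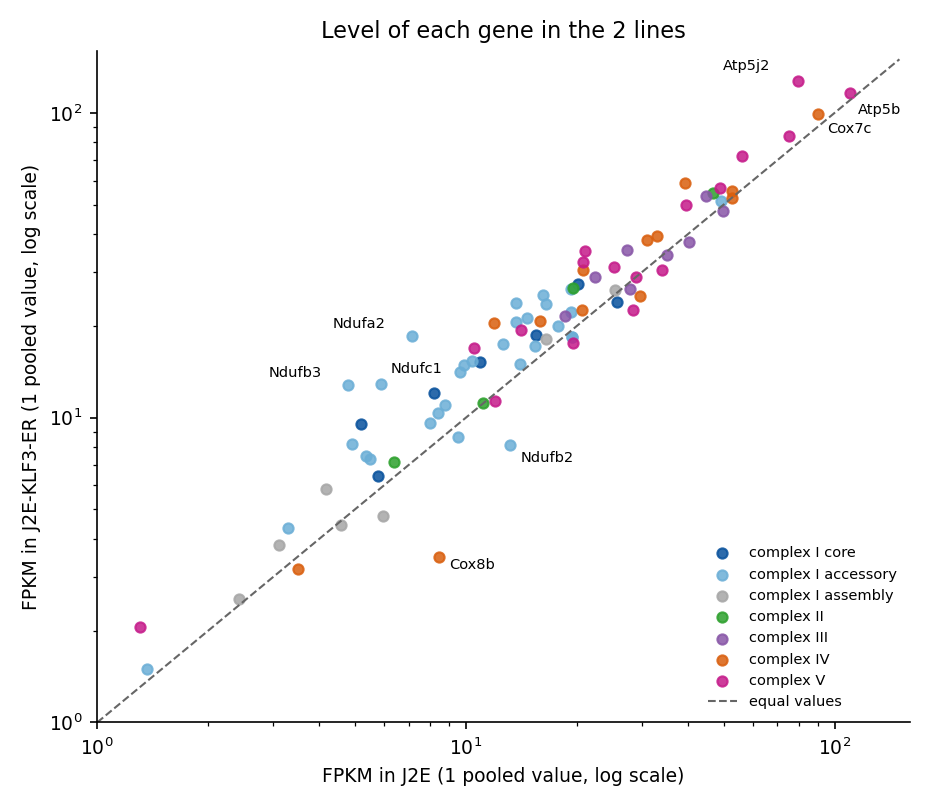
FPKM of each member above 1 FPKM in both lines, J2E on the x axis and J2E-KLF3-ER on the y axis, both on log scales, with a dashed line of equal values and a colour per complex. Most points lie slightly above the line, and Ndufa2, Ndufb3 and Ndufc1 stand furthest above it.

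The 7 members without a test were Atp5s, Cox4i2, Cox6a2, Cox7b2, Cox8c, Ndufa4l2 and Ndufaf2. Of these, 4 were under 1 FPKM in both lines, and the highest was Ndufaf2 at 2.42 and 2.54 FPKM per the authors' deposited table. Over all members, 60 of 92 were above 10 FPKM in J2E.

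The shift was compared with that of all tested genes within classes that differ in length, level or chromosome. Median fold changes differ by chromosome, with a value of 0.11 over tested genes on chromosomes 1 and 10 to 19 and of -0.03 on chromosomes 2 to 9 and X, groups chosen after their values were seen. What sets this difference was not tested. Members stood above both, at 0.38 (41 genes, 85.4% above 0) and 0.19 (44 genes, 65.9% above 0). By locus span, 58 of 85 members were in the shortest quartile, where their median was 0.24 against 0.02 for all tested genes. By level in J2E, members were at 0.39 to 0.40 in the lower 3 quartiles and at 0.08 in the highest quartile, where all tested genes were at -0.01. These classes by level use the same J2E values as the fold change. The shift was as large among the 67 tested members whose locus matched the RefSeq span within 500 bp, with a median of 0.27.

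**Figure D4:**
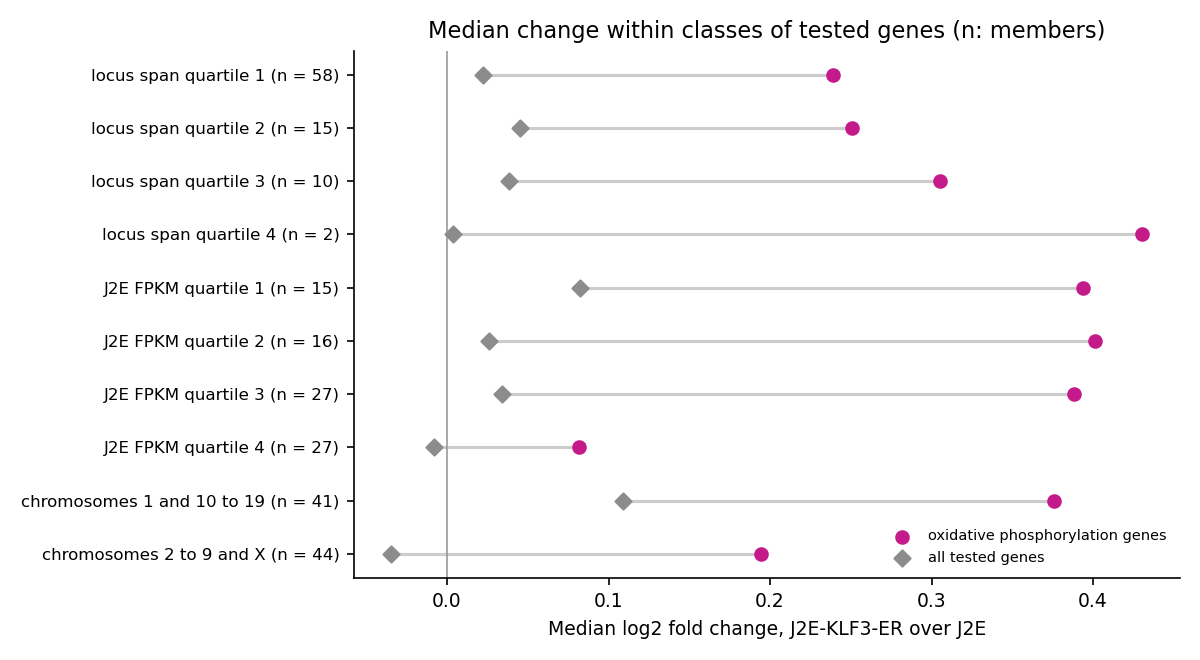
Median log2 fold change (J2E-KLF3-ER over J2E) of members and of all tested genes within quartiles of locus span, quartiles of J2E FPKM (1 is lowest) and 2 chromosome groups, with the number of members in brackets. The member median lies to the right of the median of all tested genes in each class, least so in the highest FPKM quartile (0.08 against -0.01).

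KLF3 and KLF1 peaks were assigned to a small share of these genes. Of 85 tested members, 10 (11.8%) had a KLF3 peak at any distance, against 32.3% of all tested genes, and 8 (9.41%) had one within 1 kb of the start site, against 29.0%. KLF1 peaks were assigned to 7 tested members (8.24%), against 19.1%, and within 1 kb to 2 (2.35%), against 10.7%. Both factors had peaks at 2 tested members, Ndufb4 and Cox7a2l, against 13.1% of all tested genes. By locus span, a KLF3 peak was assigned to 25.8% of all tested genes in the shortest quartile and to 33.2%, 34.3% and 36.1% in the next ones. Among members these were 9 of 58 (15.5%), 1 of 15 (6.67%), 0 of 10 and 0 of 2. In the quartile with the highest J2E level 36.7% of tested genes had one, and 4 of 27 members (14.8%). These lists come from 1 pooled library each, with other cells and another antibody for KLF1, so they describe those libraries.

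**Figure D5:**
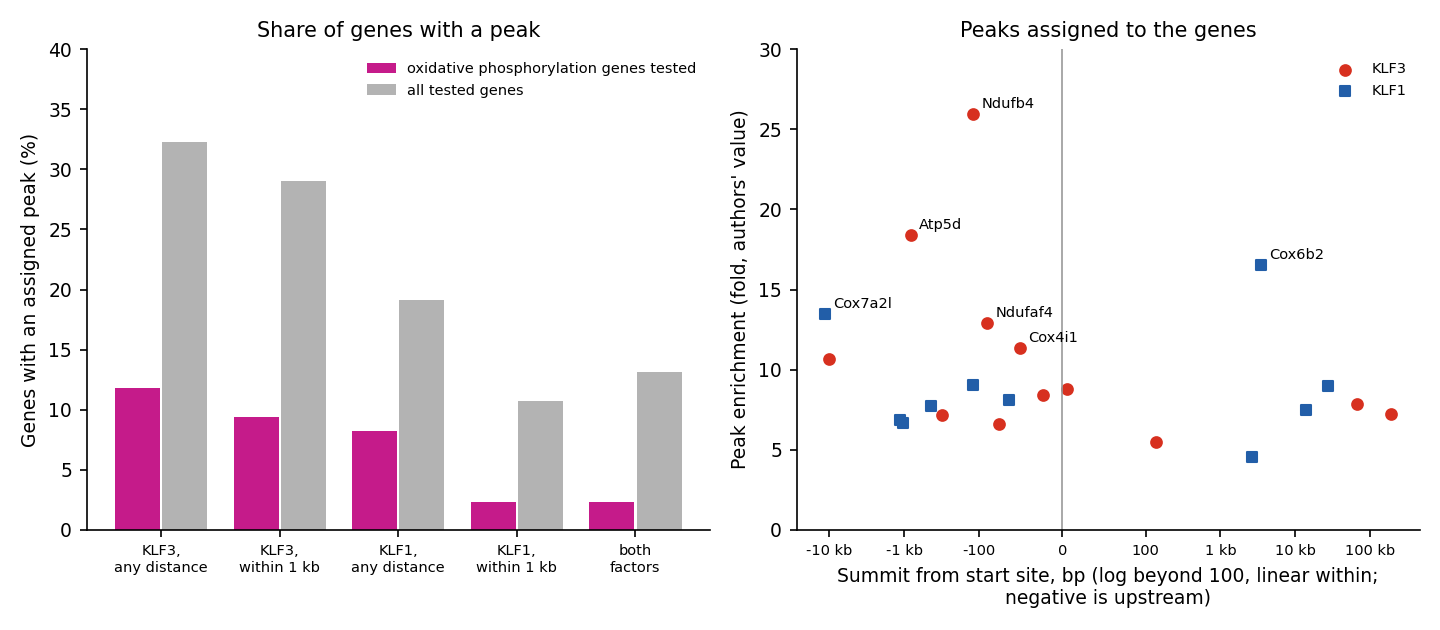
Left, the share of genes with an assigned peak (bars from 0) for the 85 tested members and all 9619 tested genes, for KLF3, KLF1 and both. Right, the 12 KLF3 and 10 KLF1 peaks assigned to members, by summit distance from the start site (log scale beyond 100 bp, linear within, upstream negative) and the authors' fold enrichment, with the KLF3 peak of Ndufb4 highest at 25.9.

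The highest KLF3 peak of the group lay at the promoter of Ndufb4, an accessory subunit of the membrane arm of complex I. It spans 37654400 to 37654751 on chromosome 16 of mm9, with an enrichment of 25.9 and rank 63 of 4579. This was the single place where peaks of both factors overlapped at a member: the KLF1 peak (37654446 to 37654726, enrichment 9.04, rank 2153 of 3800) lay wholly within it, and the summits were 120 and 119 bp upstream of the start site. Peaks that overlapped the other factor's were thus 1 of 12 for KLF3 (8.33%, against 34% of that whole list) and 1 of 10 for KLF1 (10%, against 39.3%). Ndufb4 itself stood at 9.50 FPKM in J2E and 8.68 FPKM in J2E-KLF3-ER per the authors' deposited table (log2 fold change -0.13, q = 0.941). Enrichments are the authors' values and are used to order peaks within a list.

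Other promoter peaks of KLF3 were lower. Atp5d, the delta subunit of ATP synthase, had 2, with summits 817 bp (enrichment 18.4) and 76 bp (6.59) upstream. Ndufaf4 had 1 with its summit 90 bp upstream (12.9) and Cox4i1 1 at 51 bp upstream (11.3). Ndufa5, an accessory subunit of complex I, had a summit 6 bp downstream of the start (8.78), Cox7a2 one 23 bp upstream (8.40) and Cox7a2l one 317 bp upstream (7.18). Ndufv1 had a peak in coding sequence, 136 bp downstream (5.46). The remaining KLF3 peaks lay far from the start site, at Cox6a1 (10093 bp upstream, 10.7), Atp5o (66524 bp, 7.88) and Cox7b2 (191306 bp, 7.24), the last in the authors' intergenic class. The median enrichment of the 12 peaks was 8.59, against 7.94 for the whole list.

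The bases before the start sites of 4 of these genes are shown, because they carry the KLF3 promoter peaks. They are from RefSeq, build GRCm38.p6, 250 bases up to the base before the start, on the gene's own strand and from the start furthest upstream where there are 2. Capitals mark letters that match CCNCNCCC (a KLF and SP type motif) or an NRF1 type motif, GCGC on each side of any 2 bases, on either strand. Ndufb4 is at chr16:37654369-37654618 (minus strand), Atp5d at chr10:80142025-80142274 (plus), Ndufaf4 at chr4:24897833-24898082 (plus) and Ndufa5 at chr6:24527691-24527940 (minus). No sequence is shown for Cox4i1. Counted from the mm9 start sites, 250 bases do not reach every summit. The higher Atp5d peak had its summit 817 bp upstream, and only the lower one, at 76 bp, lay within that distance. The Ndufa5 summit was 6 bp downstream of the start, past the last base shown.
Ndufb4: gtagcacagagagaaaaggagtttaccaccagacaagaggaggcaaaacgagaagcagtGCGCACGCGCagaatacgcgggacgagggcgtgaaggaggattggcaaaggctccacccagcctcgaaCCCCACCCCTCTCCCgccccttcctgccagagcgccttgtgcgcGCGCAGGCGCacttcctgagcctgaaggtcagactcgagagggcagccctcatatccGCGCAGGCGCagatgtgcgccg
Atp5d: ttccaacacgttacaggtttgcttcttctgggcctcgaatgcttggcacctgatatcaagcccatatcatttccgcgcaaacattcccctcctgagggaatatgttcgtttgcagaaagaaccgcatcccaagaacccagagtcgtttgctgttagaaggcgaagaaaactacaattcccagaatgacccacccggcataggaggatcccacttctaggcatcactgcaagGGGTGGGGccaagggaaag
Ndufaf4: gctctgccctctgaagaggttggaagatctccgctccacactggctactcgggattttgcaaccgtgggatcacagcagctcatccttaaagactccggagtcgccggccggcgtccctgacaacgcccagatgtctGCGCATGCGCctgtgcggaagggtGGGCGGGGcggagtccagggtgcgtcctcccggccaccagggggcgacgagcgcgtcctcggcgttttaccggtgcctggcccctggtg
Ndufa5: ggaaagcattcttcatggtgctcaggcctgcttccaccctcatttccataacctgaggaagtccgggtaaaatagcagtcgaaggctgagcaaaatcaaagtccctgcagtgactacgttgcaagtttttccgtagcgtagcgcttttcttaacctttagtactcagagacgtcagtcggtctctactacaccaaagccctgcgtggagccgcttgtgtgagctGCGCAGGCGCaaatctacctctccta

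In Ndufb4 the match CCCCACCC covers bases 123 to 116 before the start and holds a CACCC box, the core letters of KLF1 sites. A second match, CCTCTCCC, follows at bases 116 to 109, sharing 1 base with the first. The KLF3 and KLF1 summits of that promoter were 120 and 119 bp before the start on mm9. In Ndufaf4 the match GGGCGGGG, on the other strand, covers bases 89 to 82, and the KLF3 summit was 90 bp before the start on mm9. The positions come from 2 builds and each is counted from that build's own start site. Ndufb4 holds 3 matches to the NRF1 type motif, at bases 191 to 182, 79 to 70 and 22 to 13, and Ndufaf4 holds 1 with AT between the GCGC pairs, the full NRF1 letters, at bases 113 to 104. Atp5d has 1 match to CCNCNCCC, GGGTGGGG at bases 19 to 12, and none to the NRF1 type motif. Ndufa5 has none to CCNCNCCC and 1 to the NRF1 type motif at bases 26 to 17. A match is a description of the letters and no evidence of binding.

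Promoter windows of 300 bases (250 before the start and 50 after) were found for 76 of 92 members, 73 by symbol and 3 by synonym, in 82 windows. The NRF1 type motif (GCGC, any 2 bases, GCGC), searched like the others on both strands, was in 22 of the 82 windows (26.8%), against 14.6% of 8880 windows of tested genes and 6.23% of all 32851 windows. The full NRF1 letters, with AT as those 2 bases, are a subset of these and were in 7 (8.54%), against 2.33% and 0.971%. These 7 were the windows of Atp5g2, Atp5k, Cox6a1, Ndufa11, Ndufaf4, Ndufaf5 and Uqcrc1. The YY1 letters AAGATGG were in 13 windows (15.9%, against 8.11% of tested and 6.34% of all windows). The longer YY1 letters, AAGATGG followed by CGGC, were in 6 of these (7.32%, against 1.88% and 0.633%). The ETS letters CCGGAAG were in 17 (20.7%), close to the 20.2% of tested windows and above the 8.86% of all windows.

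The shares for the KLF letters were below those of tested windows. CCNCNCCC was in 49 of 82 windows (59.8%), against 66.7% of tested and 49.5% of all windows, and CACCC in 44 (53.7%), against 61.3% and 57.5%. The 2 motifs can overlap in the same letters. By complex, CCNCNCCC was in 16 of 20 windows of complex V and 21 of 41 of complex I. Median log2 fold changes of tested members with and without each motif were, per the authors' deposited table, 0.22 (43 members) and 0.35 (30) for CCNCNCCC, and 0.22 (39) and 0.26 (34) for CACCC. They were 0.16 (21) and 0.26 (52) for the NRF1 type motif, and 0.00 (7) and 0.26 (66) for its full letters, per the authors' deposited table. For AAGATGG they were 0.26 (12) and 0.25 (61), for its longer form 0.41 (5) and 0.23 (68), and for CCGGAAG 0.22 (17) and 0.28 (56), per the authors' deposited table. These medians describe the members, and the differences were not tested.

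Of the 10 KLF1 peaks at members 3 were within 1 kb of a start site, against 1558 of 3800 in the whole list, and 30% were in the authors' promoter class, against 31.6%. Besides Ndufb4, these were at Ndufa4l2, a hypoxia-induced relative of Ndufa4 (64 bp upstream, enrichment 8.13), and at Ndufa10 (443 bp upstream, 7.71). The highest KLF1 peaks were distal, near Cox6b2 (chromosome 7, 4700869 to 4701234, enrichment 16.5) and 11434 bp upstream of Cox7a2l (chromosome 17, 83924955 to 83925265, 13.5). Uqcr10 had 2 (8.98 and 7.46), Ndufv2 1 (6.65) and Ndufa6 1 (4.55). Ndufa4l2, with 2 KLF1 peaks, stood at 1.36 FPKM in J2E per the authors' deposited table and was not tested, and Ndufa10 went from 16.5 to 23.6 FPKM (p = 0.031, q = 0.256) per the authors' deposited table.

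Members with and without a KLF3 peak both had medians above 0 in RNA. The 10 tested members with one had a median log2 fold change of 0.36, 7 of them above 0, and the 75 without one 0.26, with 57 above 0, per the authors' deposited table. The 8 with a peak within 1 kb had a median of 0.36, against -0.01 for the 2791 tested genes of any kind with such a peak. Those 8 ranged from -0.25 (Cox7a2) to 0.77 (Cox7a2l) per the authors' deposited table. Atp5d went from 14.1 to 19.3 FPKM, Ndufa5 from 10.4 to 15.3 and Cox7a2 from 29.7 to 25.0 FPKM, none of them called, per the authors' deposited table. In the binding lists, none of the 10 KLF1 peaks and none of the 12 KLF3 peaks of members was marked by the authors as nearest to a changed gene, against 19.5% and 3.82% of all peaks. No member was called in the J2E comparison, so marks that rest on that comparison only restate this and are no separate result. Ndufb7 is 1 of 132 genes named in the KLF1 list's column of down genes for the authors' K1 and K1-ER comparison, and no member is among the 557 of its column of up genes. Members are 92 of the 23309 named rows, and 1 gene is too few to read as a result about them. The RNA values of the K1 and K1-ER comparison were not analysed here.

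The rest of the respiratory pathway was described from lists chosen by function. For comparison, 53.4% of all tested genes were above 0, with a median of 0.03. Of 13 TCA cycle enzyme genes all were above 0, with a median of 0.30 and a range of 0.09 to 0.45 per the authors' deposited table. None was called. Citrate synthase, Cs, went from 23.8 to 31.0 FPKM (p = 0.0292, q = 0.249) and fumarase, Fh1, from 11.8 to 16.1 FPKM (q = 0.359) per the authors' deposited table. Of 27 tested assembly factors outside the prefixes 18 were above 0, with a median of 0.13, and none was called. The largest difference there was at Bcs1l, a complex III assembly factor, from 2.51 to 4.31 FPKM (q = 0.280) per the authors' deposited table, followed by Cox17, a copper chaperone, from 11.6 to 16.9 FPKM (q = 0.605). Of 6 electron carrier and complex III genes outside the prefixes 2 were above 0, with a median of -0.17, and none was called. Cyc1, the cytochrome c1 of complex III, stood at 26.5 and 22.6 FPKM, and Etfa, an electron carrier of fat oxidation, had a log2 fold change of -0.43 (q = 0.397) per the authors' deposited table.

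Among 12 tested regulators of mitochondrial biogenesis 1 fell, Myc, from 9.67 to 3.18 FPKM per the authors' deposited table (log2 fold change -1.60, q = 0.00408). Of all tested genes, 1.90% fell. The coactivator Ppargc1b went from 9.65 to 14.9 FPKM (0.63, q = 0.0679), just outside the threshold, and Ppargc1a was under 1 FPKM in both lines, per the authors' deposited table. Nrf1 (51.7 and 49.8 FPKM), Gabpa (25.0 and 28.6 FPKM) and Yy1 (37.0 and 34.1 FPKM), whose letters were searched above, were not called per the authors' deposited table. Among 9 genes of uncoupling and ATP transfer 1 fell, against the same 1.90% of all tested genes. It was Ucp2, an inner membrane carrier, from 41.4 to 25.3 FPKM (-0.71, q = 0.00408) per the authors' deposited table. Ucp2 had a KLF1 peak of enrichment 53.6 and a KLF3 peak of 11.7, assigned at any distance. Of these 9 genes, 5 had a KLF3 peak and 3 a KLF1 peak, against 32.3% and 19.1% of all tested genes. Slc25a5 and Vdac1, neither of them called, also had peaks of both factors. Of the 12 tested regulators, 5 had a KLF3 peak and 2 a KLF1 peak, against the same 32.3% and 19.1%. Myc had 2 KLF3 peaks (the higher at 5.23) and no KLF1 peak, and Ppargc1b had 2 KLF1 peaks (the higher at 16.2) and no KLF3 peak. Slc25a5, the main ADP/ATP carrier here, stood at 226 and 202 FPKM (q = 0.692) per the authors' deposited table.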

How the data were processed

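Newly made RNA of 3 J2E and 3 J2E-KLF3-ER libraries and chromatin of KLF3 and KLF1 were measured, as the labels group them. Build mm9, MACS 1.4.2, MACS2 and TopHat2 2.0.10 are named per the submitters' processing notes, without roles. Which tool made the RNA comparison, and whether counting used strand, is not given in the sources used here. The RNA table of the authors, per the file headers, holds FPKM as 1 pooled value per group, the log2 fold change of J2E-KLF3-ER over J2E, their p-value and q-value, and their test statistic, a score. Each deposited peak has an enrichment ratio, a summit, an annotation class and a distance to the nearest start site, which was turned to the gene's direction. Of columns with per-sample values, 0 were left out.

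Genes at the authors' q below 0.05 are called changed. Recomputing the q-value by Benjamini-Hochberg over 9619 genes gave the deposited one within 5.26e-07. The 93 blank rows were dropped. Peaks were assigned as the authors did, at any distance, and overlapped when they shared at least 1 bp. The members and lists were chosen with earlier results of these data known. Named genes are, in each complex, the 3 with the highest J2E FPKM and the 2 with the largest log2 difference among those with at least 1 FPKM in each line, the highest peaks and all Sdh genes; of the other lists, the called genes or the 2 largest differences. Further members, such as those at p below 0.05 and the complex IV paralogs, were named after their values were seen. The values of 2 genes that the rule covers are not reported here. The list of regulators also holds Twistnb, a polymerase I subunit gene. Gene spans and promoters are those of RefSeq on GRCm38.p6. Alternatives were a q of 0.1, a floor of 1 FPKM, centring, a pseudocount of 1, a 1 kb limit on peaks, peaks at or above each list's median and an overlap of 50%. Scripts ran under Python 3.11.15 (pandas 2.3.3, SciPy 1.17.1, NumPy 2.4.6, matplotlib 3.10.9), and the motif search, overlap, adjustment and naming rule were tested on simulated data.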

Additional observations from a re-analysis of the deposited data

How the results depend on the processing

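The median log2 fold change of tested members kept its sign under 5 alternatives, between 0.23 and 0.27. No member rose or fell at the authors' q below 0.05, also with the floor of 1 FPKM or without the Ndufaf assembly factors. At a q below 0.1 the count of rising members was 1 (Atp5j2, named above), against 1.69% of all tested genes, and of falling members 0. At an unadjusted p below 0.05, an alternative chosen after seeing the data, 15 members were higher and 0 lower. Members with a KLF3 peak numbered 11, and 7 when only peaks at or above the list's median enrichment were used, 8 within 1 kb, and 9 when peaks near a member's own start but assigned to another gene were added after seeing the data. Members with a KLF1 peak numbered 8, and 3 within 1 kb and 2 with the upper part of the list. The 1 member with overlapping peaks, Ndufb4, was left with 0 when both peaks had to reach their list's median enrichment. No paired analysis was possible because the table holds 1 pooled value per group, and for the same reason no library, including the vehicle-treated one, could be left out. Depth per library is unknown, so precision rests on the authors' test.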

Other observations

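Peaks can lie at a member's start site and be assigned to a neighbouring gene. Of the 63 members whose locus matched the RefSeq span within 500 bp and whose strand was known, 1 had such a KLF3 peak: Atp5h, subunit d of ATP synthase, with a summit 597 bp upstream of its start (enrichment 10.9) that the authors assigned to Kctd2. Atp5h stood at 48.8 and 56.8 FPKM in the authors' deposited table (q = 0.727).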
